A study of Mus musculus with 2 samples.

Results

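Matrix metalloproteinases (MMPs) and the tissue inhibitors of metalloproteinases (TIMPs) were followed in costal-cartilage-derived stem cells (CDSCs) of the mouse, before and after culture. The set comprised 9 genes chosen by symbol, the proteases Mmp2, Mmp3, Mmp9, Mmp10, Mmp13 and Mmp14 and the inhibitors Timp1, Timp2 and Timp3, and all 9 were found among the 21849 genes of the deposited tables. Per the study, CDSCs were released enzymatically from rib cartilage of newborn CD45.1 or ZsGreen mice and purified as CD45- CD51+ cells (without the blood cell protein CD45, with the integrin chain that Itgav encodes). Single-cell RNA sequencing with droplet-based 3′ capture was available for primary CDSCs (1 library) and for cultured CDSCs at passages 2 to 3 (1 library), the latter grown in serum-containing medium. No treatment other than culture separated the groups per the labels. The study compared the libraries to ask whether CDSCs change during expansion.

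MMPs are zinc-dependent enzymes that cut the proteins of the extracellular matrix, and most are secreted as inactive precursors. In cartilage and at the growth plate, Mmp13 (a collagenase) and Mmp9 (a gelatinase) clear collagen and aggrecan while cartilage is replaced by bone, and Mmp14 is anchored in the cell membrane, where it activates Mmp2 with Timp2 as an adaptor. TIMPs bind the active site of MMPs, and Timp3, which stays bound to the matrix, also inhibits the aggrecanases that remove aggrecan.

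Each group was 1 library, so no difference has a replicate check, no test was performed, and all intervals are exact 95% intervals that cover counting error only. The primary library kept 11746 cells with 137148874 UMIs (unique molecular identifiers, counted once per captured transcript) and a median of 10026.5 UMIs per cell, and the cultured library kept 5338 cells with 330129909 UMIs and a median of 56864.5 UMIs. The cell filter left out 1.26% of the primary and 50.6% of the cultured barcodes, and 15 of the kept barcodes occurred in both libraries. ZsGreen, the fluorescent reporter, had 60957 primary and 0 cultured UMIs, and Kdm5d, a gene of the Y chromosome, had 2 and 4629 UMIs. The donors therefore differed, and culture, donor and library cannot be told apart. Ptprc, which encodes CD45, was at 0.620 and 0.345 CPM (UMIs scaled to a library total of 1000000) and Itgav at 92.5 and 109 CPM. In the labels the tissue is bone marrow although the cell type is named after costal cartilage. Of the 13 chondrocyte markers, 13 reached 10 CPM before and 4 after culture, with summed levels of 90826 and 1083 CPM, whereas the 10 haematopoietic markers summed to 10.1 and 23.7 CPM, the 9 endothelial markers to 28.02 and 29.3 CPM, and the 10 markers of mesenchymal fibroblasts to 3349 and 1711 CPM. The fibroblast sum mixed directions. Col1a2, Postn, Dcn, Lum and Fap were lower after culture, with Dcn at 1375 and 65.5 CPM and Lum at 805 and 15.0 CPM. Col1a1, Col3a1, Pdgfra, Thy1 and Prrx1 were higher, with Col1a1 at 149 and 705 CPM and Prrx1 at 48.5 and 482 CPM. The 8 markers of smooth muscle and pericytes summed to 214 and 1333 CPM, of which Tagln alone, an actin-binding protein gene, had 38.5 and 1282 CPM.

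The 3 TIMPs of the set were higher in cultured cells, while the sum of the 6 MMPs of the set was nearly level. The TIMPs summed to 1113 CPM before and 4498 CPM after culture, while the 6 MMPs summed to 329 and 321 CPM. Within that nearly equal MMP sum, Mmp2 was lower and Mmp14 and Mmp13 were higher in cultured cells. The sum over all 23 Mmp genes of the deposited tables, a choice made after seeing the data, was not level, at 638 CPM before and 477 CPM after culture. Of the 9 members, 7 were higher and 2 lower in the cultured library, with a median log2 ratio (cultured over primary CPM) of 1.70. The 9115 genes compared, which reached 10 CPM in either library, had a median of 0.37 (quartiles −0.33 and 1.08), so most of them were higher too. The members that reached the same 10 CPM had a median of 1.82. Of the 6 members that passed this minimum, 2 (Mmp13 and Timp3) were at least 4-fold higher in cultured cells, as were 10.6% of all genes compared, and 0 were at least 4-fold lower, as were 5.73%. Mmp13 passed the minimum only through the cultured library, at 0.153 primary and 22.4 cultured CPM, so passing already set its call. With 2 of 6 members called, the difference from that background rests on 2 genes and was not tested. Mmp3, Mmp9 and Mmp10 stayed under the minimum in both libraries and entered neither count.

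**Figure D1:**
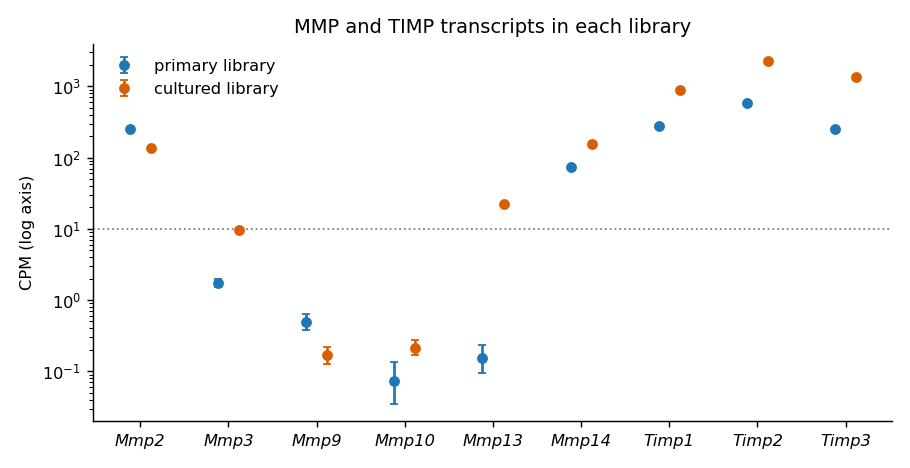
CPM of each member in the primary and cultured library on a log axis; bars are exact Poisson intervals and the dotted line marks 10 CPM. All 3 TIMPs and Mmp14 lay higher in the cultured library, Mmp2 lay lower, and Mmp13 moved from 0.153 to 22.4 CPM.

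**Figure D2:**
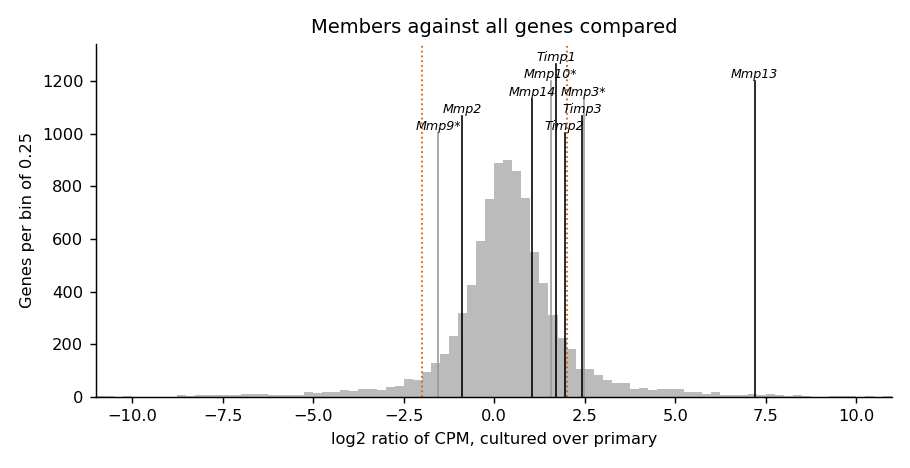
Log2 ratios of CPM, cultured over primary, for the 9115 genes compared (grey histogram, bins of 0.25), with each member as a vertical line; asterisks mark members under 10 CPM in both libraries, and dotted lines mark 4-fold. Mmp13, at 7.19, lay far to the right of the bulk of genes, and Mmp2 and Mmp9 lay to the left of 0.

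The gelatinase Mmp2 (chr8:92827291-92853420, plus strand, GRCm38), which cuts denatured and basement membrane collagen, led the proteases of the set in primary cells, with 253 CPM (interval 250 to 255), and had 136 CPM (135 to 137) in cultured cells. Its log2 ratio was −0.89 (−0.91 to −0.87). Mmp14 (chr14:54431612-54445364, plus strand), the membrane-bound activator of Mmp2, went the other way, from 73.8 CPM (72.4 to 75.3) before culture to 153 CPM (151 to 154) after it, with a log2 ratio of 1.05. The order of this pair was thus exchanged, with Mmp2 above Mmp14 in primary cells and Mmp14 above Mmp2 in cultured cells. The other gelatinase, Mmp9 (chr2:164940780-164955850, plus strand), which is typical of osteoclasts and white blood cells, was nearly absent, with 68 primary UMIs (0.496 CPM) and 56 cultured UMIs (0.170 CPM). Those UMIs were scattered, since 66 of the 67 primary cells and 48 of the 52 cultured cells with Mmp9 held 1 UMI each. Summed osteoclast markers were 40.0 and 17.8 CPM, of which Ctsk alone had 34.9 and 15.8 CPM and Acp5 had 4.72 and 1.44 CPM. Ocstamp, Dcstamp, Atp6v0d2 and Oscar were at most 0.415 CPM in either library. The share of Mmp9 that osteoclasts contributed was not tested.

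The largest ratio belonged to Mmp13 (chr9:7272514-7283331, plus strand), the main collagenase against type II collagen. Primary cells had 21 UMIs, or 0.153 CPM (0.0948 to 0.234), and cultured cells had 7403 UMIs, or 22.4 CPM (21.9 to 22.9). The cultured level was 146-fold the primary level (log2 ratio 7.19, 6.58 to 7.89), or 7.94 on the log2 scale when every cell was given equal weight. In the primary library the 21 UMIs came from 5 cells, of which 1 held 16. Mmp3 (chr9:7445822-7455975, plus strand), the stromelysin that cuts proteoglycans and activates procollagenases, stood at 1.73 CPM (1.52 to 1.96) before and 9.60 CPM (9.26 to 9.94) after culture, a log2 ratio of 2.47 (2.28 to 2.67). With each cell weighing the same, its log2 ratio was 3.34. Its 237 primary UMIs came from 72 cells, and 10 of these held 147. Mmp10 (chr9:7502352-7510240, plus strand), the second stromelysin, was at 10 and 71 UMIs, so that its log2 ratio of 1.56 had a wide interval (0.60 to 2.68), and it was 2.41 with each cell weighing the same. In CPM of the whole library, all of these levels stayed far below those of Mmp2 and Mmp14.

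Mmp13, Mmp3 and Mmp10 lie together in a cluster of 10 Mmp genes that spans 427 kb of chromosome 9. Across that cluster, 3 genes (Mmp13, Mmp3 and Mmp12, a macrophage elastase) had at least 100 UMIs in the cultured library, at 7403, 3168 and 100 UMIs, where the primary library had 21, 237 and 1. Mmp1a, Mmp1b, Mmp7 and Mmp20 had 0 UMIs in both libraries, and Mmp8, the neutrophil collagenase, had 22 primary and 8 cultured UMIs. Mmp27 had 1 primary and 49 cultured UMIs, so that 5 of the 10 genes were higher in the cultured library, 1 was lower and 4 had no UMI. Of these genes only Mmp13 reached 10 CPM in either library, and most of the genes compared were higher too, with a median log2 ratio of 0.37. RefSeq promoters (GRCm38.p6, 250 bases before to 50 after the start) were matched for 7 of the 9 members, those other than Mmp2 and Mmp9. The promoters of Mmp13, Mmp3 and Mmp10 each held the letters TGAGTCA (either strand, the site of AP-1, a Fos and Jun dimer), which 5.20% of all 32851 promoters of this length held. The same 3 promoters held TATAAA on the gene's strand, found on either strand in 13.6% of all promoters, and the Mmp13 promoter alone held AACCACA, a Runx site, found in 5.27%. Mmp14, Timp1, Timp2 and Timp3 held none of the 3 motifs in this window. The last 150 bases before each start, at chr9:7272364-7272513, chr9:7445672-7445821 and chr9:7502192-7502341 on the plus strand, are given because they hold what these neighbours share, with every motif match in capitals.
Mmp13: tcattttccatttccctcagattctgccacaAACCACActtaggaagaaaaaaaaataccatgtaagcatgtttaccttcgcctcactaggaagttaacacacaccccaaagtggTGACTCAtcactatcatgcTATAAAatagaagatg
Mmp3: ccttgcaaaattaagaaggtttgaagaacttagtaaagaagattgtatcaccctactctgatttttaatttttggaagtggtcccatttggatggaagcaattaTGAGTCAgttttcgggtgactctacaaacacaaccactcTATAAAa
Mmp10: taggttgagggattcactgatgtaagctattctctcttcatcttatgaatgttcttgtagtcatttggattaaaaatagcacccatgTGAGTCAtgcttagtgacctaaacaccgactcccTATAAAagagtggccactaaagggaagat
The match of TGAGTCA began 35, 46 and 63 bases before the start in Mmp13, Mmp3 and Mmp10, on the minus strand in Mmp13 and on the plus strand in the others. These distances are from the RefSeq start, which for Mmp10 lies upstream of the gene start given above. GC content was 37.7% to 43.7% in these 3 promoters and 55.0% to 68.7% in the other 4. A match describes the letters in this window and says nothing of binding.

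Timp1, Timp2 and Timp3 were all higher in the cultured library. Timp2 (chr11:118301069-118355740, minus strand), the adaptor in Mmp2 activation, led in both libraries, with 586 CPM (582 to 590) in primary and 2252 CPM (2247 to 2257) in cultured cells and a log2 ratio of 1.94. Timp1 (chrX:20870166-20874735, plus strand), a secreted inhibitor of most soluble MMPs, had 275 CPM (272 to 278) and 896 CPM (893 to 899), a log2 ratio of 1.70. Timp3 (chr10:86300372-86349506, plus strand) had 252 CPM (249 to 255) and 1349 CPM (1345 to 1353), which was 5.36-fold and the largest ratio of the 3 (log2 2.42). By CPM, which in 3′ counting does not scale with transcript length, the primary order was Timp2, Timp1, Mmp2, Timp3, Mmp14, Mmp3, Mmp9, Mmp13 and Mmp10. The intervals of Mmp2 and Timp3 overlapped at that point of the order, and those of Mmp13 and Mmp10 did too. The cultured order was Timp2, Timp3, Timp1, Mmp14, Mmp2, Mmp13, Mmp3, Mmp10 and Mmp9, where only the intervals of Mmp10 and Mmp9 overlapped. In the annotation Timp1 lies within Syn1 and Timp3 within Syn3 on opposite strands, and Cep295nl lies within Timp2 on the same strand. Syn3 went from 7.63 to 54.4 CPM alongside Timp3, whereas Syn1 (10.3 and 7.11 CPM) and Cep295nl (5.71 and 5.04 CPM) did not move with their partners, and how reads were split between such pairs was not tested.

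The balance of inhibitor to protease transcripts within a library does not depend on how libraries are scaled. For each UMI of the 6 MMPs there were 3.38 UMIs of the 3 TIMPs (3.35 to 3.42) in primary cells and 14.0 (13.9 to 14.1) in cultured cells. Expressed as the ratio of MMP to TIMP UMIs, the cultured library stood at −2.05 on the log2 scale against the primary. With every one of the 23 Mmp and 4 Timp genes of the tables in place of the members, a choice made after seeing the data, the TIMP UMIs per MMP UMI were 1.76 (1.75 to 1.78) and 9.44 (9.39 to 9.49). Counted per cell after each cell had been thinned to 5000 UMIs, TIMP UMIs outnumbered MMP UMIs in 80.7% of the 10959 primary cells, and the share was 98.7% of the 4543 cultured cells. MMP UMIs outnumbered TIMP UMIs in 1148 primary cells (10.5%) and in 42 cultured cells (0.924%). The median thinned cell held 4 TIMP UMIs before and 18 after culture, and 1 MMP UMI in both libraries.

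Levels say little of how many cells carried a transcript, so shares of cells were compared at the common depth of 5000 UMIs, without the 787 primary and 795 cultured cells that were shallower. Timp3 was the member whose spread over cells differed most from that of its peers in the primary library. At almost the same CPM as Mmp2, it was seen in 29.4% of thinned primary cells (28.6% to 30.3%), against 67.2% (66.3% to 68.0%) for Mmp2 and 52.9% (52.0% to 53.8%) for Timp1. The variance of its thinned UMIs was 8.56 times their mean, against 1.45 for Mmp2, and the top 1% of primary cells held 21.6% of all Timp3 UMIs and 5.49% of all Mmp2 UMIs. In the cultured library Timp3 was seen in 90.4% of cells (89.5% to 91.2%), but its levels were uneven there too. The variance of its thinned UMIs was 8.92 times their mean, against 4.58 for Timp1 and 3.99 for Timp2. That mean was 6.22 UMIs, against 1.15 in primary cells, and the top 1% of cultured cells held 12.2% of all Timp3 UMIs. Timp1 was seen in 89.6% of cultured cells (88.7% to 90.5%), and Timp2 in 91.0% of primary and 99.7% of cultured cells.

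Mmp14 was seen in 28.2% of thinned primary cells (27.3% to 29.0%) and 51.1% of thinned cultured cells (49.6% to 52.5%). Mmp2 was seen in 67.2% and 46.0% (44.5% to 47.4%). Without thinning, the Mmp2 shares were 85.1% and 83.0%, at a median of 10026.5 and 56864.5 UMIs per cell. Mmp13 went from 2 of 10959 thinned primary cells (0.0182%, 0.00221% to 0.0659%) to 153 of 4543 cultured cells (3.37%, 2.86% to 3.93%), or 0.0426% and 10.4% without thinning. Mmp3 was seen in 0.338% (0.238% to 0.465%) and 2.53% (2.09% to 3.03%) of thinned cells, or 0.613% and 10.0% without thinning. Mmp9 was seen in 0.246% of thinned primary and 0.154% of thinned cultured cells, but in 0.570% and 0.974% without thinning, so its share gives no order against the lower cultured CPM. Mmp10 was seen in 2 and 5 thinned cells.

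**Figure D3:**
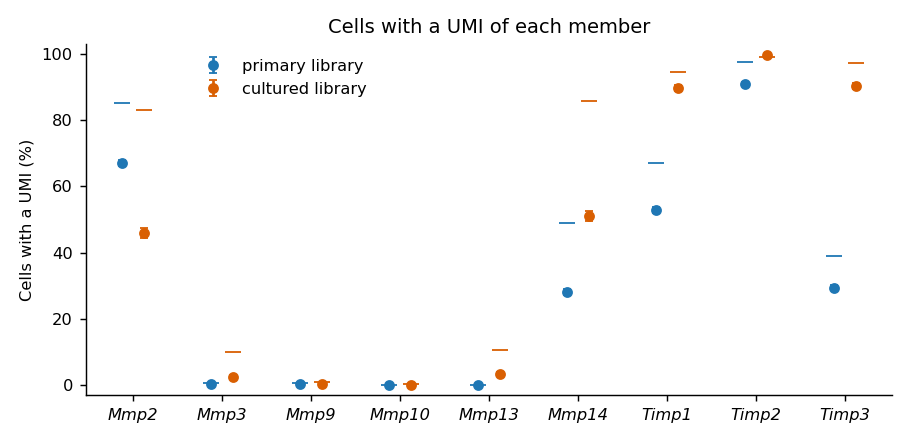
Percentage of cells with at least 1 UMI of each member: points with exact binomial intervals are cells thinned to 5000 UMIs (10959 primary, 4543 cultured), and horizontal dashes are the unthinned shares of all kept cells. Timp3 went from 29.4% to 90.4% of thinned cells, whereas Mmp2 went from 67.2% to 46.0%.

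Cells of other lineages served as a comparison for free RNA. In the primary library, 26 cells with mast cell and endothelial markers (median 9403 UMIs, 18 of them thinned) showed Timp3 in 66.7% (41.0% to 86.7%), at 543 CPM, so Timp3 was seen more often there than over all primary cells. In the same 18 cells Mmp2 was seen in 33.3% (13.3% to 59.0%) and Timp2 in 72.2% (46.5% to 90.3%), which were below the shares over all primary cells. Mmp14 and Timp1 were each seen in 38.9% (17.3% to 64.3%), an interval that held their shares over all primary cells. Thus 18 cells were too few to set a background for these genes. Whether cells of other lineages transcribe the members themselves was not tested, so their shares cannot be read as free RNA alone. Mmp3, Mmp9, Mmp10 and Mmp13 were seen in 0 of the 18, but the exact upper limit of 18.5% lies far above their shares over all primary cells, so this sets no background.

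In the cultured library, 9 haematopoietic-like cells (median 35946 UMIs) served in the same way. Timp1 was seen in 22.2% (2.81% to 60.01%) and Timp3 in 44.4% (13.7% to 78.8%), both below the shares over all cultured cells. The intervals for Mmp13 (1 of 9 cells, 0.281% to 48.2%), Mmp2 (1 of 9 cells), Mmp14 (5 of 9 cells, 21.2% to 86.3%) and Timp2 (8 of 9 cells) held the shares over all cultured cells, so that 9 cells were too few to set a background for these genes. Mmp3 was seen in 0 of 9, with an exact upper limit of 33.6%. Before thinning, 17 of the 19 Mmp13 UMIs of these 9 cells were in 1 cell.

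Clusters were formed in each library separately and without any Mmp or Timp gene, so the members did not define the clusters in which they are described. Cultured cells carried Mmp13 mainly in cluster 4, 541 cells led by Csmd1, Sfrp4, Gdf10 and Comp, which stayed unnamed because it held too few markers of any fixed class. It held 10.1% of cultured cells and 67.1% of Mmp13 UMIs, at 180 CPM, and its share of thinned cells with Mmp13 was 14.1% (11.3% to 17.3%). Among the other cultured clusters of at least 100 cells, Mmp13 ran from 1.11 to 13.3 CPM, and its thinned share was at most 2.66% (1.76% to 3.84%). Mesenchymal fibroblast-like cluster 8 had 0 of 181 thinned cells, for which the exact upper limit is 2.02%, and 14 Mmp13 UMIs before thinning. Mmp3 was also highest in cluster 4, at 39.7 CPM and 8.15% of thinned cells (5.98% to 10.8%). Mmp2 reached 233 CPM there, its highest cultured value. Mmp14 was at 159 CPM in cluster 4, so that Mmp13 lay above Mmp14 in this cluster.

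TIMPs ran the other way in the same cells. Cluster 4 had the lowest Timp2 (1286 CPM) and Timp3 (591 CPM) among cultured clusters of at least 100 cells, and its Timp1 (590 CPM) was above only that of cluster 1 (495 CPM). It therefore carried 4.02 TIMP UMIs per MMP UMI (3.96 to 4.09), against 10.5 to 25.1 in the other cultured clusters of that size. Even so, most of its cells had no Mmp13 UMI at the thinned depth. Timp3 was highest in cluster 0, 254 cells led by Nr5a2, Barx1 and Sfrp2, at 3452 CPM. At the finer resolution of 1.0, cluster 2 of 331 cells, again led by Csmd1, Sfrp4 and Fap with Gdf10 and Comp, had the highest Mmp13 (254 CPM) and Mmp3 (45.5 CPM) and the lowest Timp2 (1187 CPM) and Timp3 (465 CPM). Cluster 7, of 877 shallow barcodes with a median of 1289 UMIs and 0.329% mitochondrial UMIs, contributed 4.39% of Mmp3, 14.1% of Mmp10 and 0.892% of Mmp13 UMIs.

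**Figure D4:**
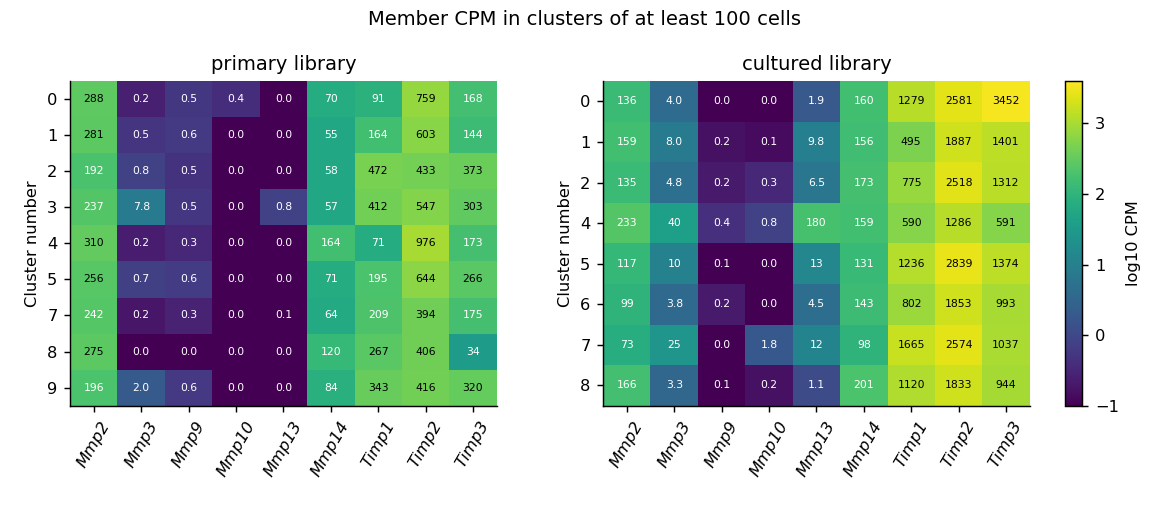
CPM of each member (columns) in each cluster of at least 100 cells (rows) of the primary and cultured library, with the value printed and coloured by log10 CPM, where values under 0.1 take the colour of 0.1. Cultured cluster 4 stood out with Mmp13 at 180 CPM and Mmp3 at 39.7 CPM beside the lowest Timp2 and Timp3.

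**Figure D5:**
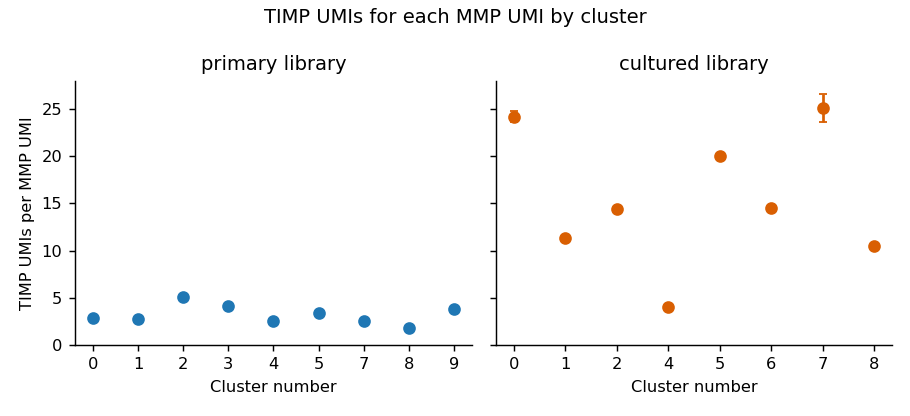
UMIs of the 3 TIMPs for each UMI of the 6 MMPs in clusters of at least 100 cells, with exact intervals, by library. Cultured cluster 4, at 4.02, fell within the primary range of 1.79 to 5.08, and the other cultured clusters lay at 10.5 to 25.1.

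In the primary library 9 clusters of at least 100 cells, with 11458 of the 11746 cells, were chondrocyte-like. Between them, Timp1 was highest in cluster 2 (472 CPM), with Aoc2 and Acta2 among its leading genes, and lowest in cluster 4 (71.5 CPM), led by Bmp3, Tll1 and Clu. Timp2 was highest in cluster 4 (976 CPM) and lowest in cluster 7 (394 CPM), with 433 CPM in cluster 2. Mmp14 was highest in cluster 4 as well, at 164 CPM against 55.0 to 120 CPM in the other 8. Timp3 ran from 34.1 CPM in cluster 8 to 373 CPM in cluster 2. Mmp3 UMIs were mostly in cluster 3, with Slc22a4 and Srxn1 among its leading genes, which held 175 of the 237 Mmp3 UMIs and 18 of the 21 Mmp13 UMIs. Few cells carried them, since Mmp3 was seen in 19 of the 1577 thinned cells of cluster 3 (1.20%, 0.727% to 1.88%). Over the primary library, 10 cells held 147 of the 237 Mmp3 UMIs. TIMP UMIs per MMP UMI ranged from 1.79 to 5.08 over these clusters. The 253 mesenchymal fibroblast-like primary cells carried Mmp14 at 352 CPM (328 to 378) and Mmp2 at 593 CPM (561 to 626), against 69.0 CPM (67.6 to 70.4) and 247 CPM (245 to 250) in the chondrocyte-like cells, and contributed 7.71% of all primary Mmp14 UMIs. Leaving only chondrocyte-like primary cells in the comparison, an alternative chosen after seeing the data, gave a log2 ratio of 7.24 for Mmp13 and 1.96 for Timp2.

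Correlations between members over cells were low. Over the 4543 thinned cultured cells, the Pearson correlation of log-transformed UMIs was 0.27 for Timp1 and Timp2, 0.27 for Timp2 and Timp3 and 0.04 for Timp1 and Timp3. In the 10959 primary cells, the same pairs were at −0.17, 0.01 and 0.11. The points share a library and its depth, and correlations across cells were taken as descriptions. Mmp3 and Mmp13 had a correlation of 0.12 in cultured cells, where Mmp13 was seen in 19.1% of the cells with Mmp3 and in 2.96% of those without. Before thinning, 122 cultured cells held UMIs of both, out of 535 with Mmp3 and 557 with Mmp13, and 14 of the 22 cells with Mmp10 held Mmp3 or Mmp13 as well. No primary cell held both Mmp3 and Mmp13. The top 1% of cultured cells, 53 cells, held 74.2% of all Mmp13 UMIs and 62.5% of all Mmp3 UMIs, and 1 cell reached 461 Mmp13 UMIs.

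The genes most like each abundant member over the cells differed between the libraries. In primary cells Timp1 was closest to Epyc (Pearson 0.38), Cst3 (0.37), Scrg1 (0.36), A2m (0.34) and Acan (0.32), among 3030 genes with at least 50 CPM, whereas Timp2 was closest to Clu (0.30), Mgp (0.28), Igfbp7 (0.27), Wif1 (0.24) and Scara3 (0.24). Mmp14 was closest to Postn (0.27), Col1a1 (0.25), Col3a1 (0.22), Col1a2 (0.18) and Cilp2 (0.16), and the first 4 of these genes were also the closest to Mmp2, at 0.12 to 0.14, followed by Dlk1 (0.11). The fifth abundant member, Timp3, had no correlation above 0.11 there, with Timp1, Aspn, Prune2, Eln and Cst3 in front. In cultured cells, among 3476 such genes, S100a6 was first for both Timp1 (0.45) and Timp2 (0.41). It was followed by Gapdh (0.35), Lgals1 (0.34), Rps2 (0.33) and Rpsa (0.32) for Timp1, and by Bsg (0.34), Cd81 (0.30), Aldh1a1 (0.28) and Sparc (0.28) for Timp2. Timp3 was closest to Syn3 (0.36), the gene that encloses it on the other strand, and then to Adamts5 (0.28), an aggrecanase that Timp3 inhibits, Timp2 (0.27), Cavin2 (0.26) and Col8a1 (0.26). For Mmp2, with Errfi1, Btg2, Col6a1, Pdzrn4 and Ebf1 in front, cultured correlations reached only 0.15, and for Mmp14, with Cdh11, Zbtb20, Calu, Setbp1 and Cacna2d1, only 0.09.

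Other MMPs and TIMPs moved in both directions. Of 18 further family genes, 4 reached 10 CPM, and past 4-fold 1 of them was higher and 2 were lower after culture, where 10.6% and 5.73% of all genes compared were, with a median log2 ratio of −0.70 beside 0.37. Mmp16, a membrane-bound MMP, had 271 CPM in the primary library, above Mmp2, and 42.4 CPM in the cultured library (log2 ratio −2.67). Timp4 had 13.4 and 0.972 CPM (−3.78), so the fourth inhibitor went against the other TIMPs. Mmp19 had 0.160 and 13.8 CPM (6.43), and Mmp23 33.2 and 80.6 CPM (1.28). Timp4 and Mmp19 passed 10 CPM only through the library where they were higher, so passing already set their calls. Mmp11, at 0.773 and 9.95 CPM (3.69), stayed just under the minimum, so the counts and the median depend on that line.

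Proteins that activate MMPs showed no common direction. Of 9 genes, 7 were compared, and past 4-fold 2 were higher and 0 lower, beside 10.6% and 5.73% of all genes, with a median log2 ratio of 1.21 beside 0.37. The higher ones were the plasminogen activators Plat (1.96 and 22.0 CPM, log2 ratio 3.49) and Plau (1.49 and 10.7 CPM, 2.84), and their receptor Plaur had a log2 ratio of 1.56 and Bsg, a surface inducer of MMPs, of 1.21. Plat and Plau passed the 10 CPM minimum only through the cultured library, so passing already set their calls. The proprotein convertases Furin (−1.36), which removes the propeptide of Mmp14, Pcsk5 (−1.80) and Pcsk6 (−0.45) were lower, while plasminogen itself (Plg) had 11 and 2 UMIs. Among inhibitors outside the TIMPs, 4 of 9 were compared. Serpine2, a serine protease inhibitor, had 462 and 1406 CPM (1.60), whereas A2m, a broad protease trap, had 186 and 0.833 CPM (−7.80). Reck, a membrane-bound MMP inhibitor, was at 33.2 and 34.8 CPM.

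Of 7 genes for MMP docking, clearance and collagen uptake, 6 were compared, and past 4-fold 1 was higher and 0 lower, beside 10.6% and 5.73% of all genes, with a median log2 ratio of 0.80 beside 0.37. That gene was Cd44, a hyaluronan receptor that can hold MMPs at the cell surface, at 8.11 and 358 CPM (5.46). Lrp1, which clears MMP and TIMP complexes, had a log2 ratio of 1.35 and Cav1 of 1.51, and Mrc2, a collagen uptake receptor, of −0.78, with Itgav at 0.24 and Cd63, a Timp1 partner, at −0.18. Among 4 compared genes for cysteine cathepsins and their inhibitor, Cst3, the cystatin, was past 4-fold lower (2296 and 483 CPM, −2.25) and 0 were past 4-fold higher, beside 5.73% and 10.6% of all genes, with Ctsb at 0.88, Ctsl at 0.51 and Ctsk at −1.14.

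The regulators of Mmp13 and stromelysin transcription were all compared, and past 4-fold 0 of the 12 were higher and 3 were lower after culture, beside 10.6% and 5.73% of all genes compared, with a median log2 ratio of 0.29 beside 0.37. Those 3 were the AP-1 genes Fos (5378 and 308 CPM, log2 ratio −4.12), Junb (2823 and 320 CPM, −3.14) and Jun (1888 and 263 CPM, −2.85), and the AP-1 genes Fosl1 (−0.44) and Jund (−0.49) were lower by less. Fosl2, also of AP-1, had a log2 ratio of 1.16. Runx2, a bone transcription factor that binds the Mmp13 promoter, was nearly level at 110 and 112 CPM. Il1r1, the interleukin-1 receptor, had 24.1 and 82.7 CPM (1.78), with Ddr2, a collagen receptor, at 1.07, Mef2c at 1.03, Nfkb1 at 0.66 and Ets1 at 0.56.

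Among 10 MMP substrates, 9 were compared, and past 4-fold 2 were higher and 4 lower, beside 10.6% and 5.73% of all genes, with a median of −1.88 beside 0.37. The cartilage substrates Acan (1954 and 2.51 CPM, log2 ratio −9.60), Col2a1 (53269 and 490 CPM, −6.76), Comp (2956 and 46.5 CPM, −5.99) and Dcn (1375 and 65.5 CPM, −4.39) were the lower ones, and Spp1, osteopontin (53.1 and 6573 CPM, 6.95), and Col1a1 (149 and 705 CPM, 2.24) the higher ones. Col1a2 (−1.88), Fn1 (−0.58) and Col3a1 (0.43) lay between.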

How the data were processed

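Single-cell RNA sequencing data of 1 primary and 1 cultured CDSC library were analysed, grouped by the treatment label. The authors used Cell Ranger 7.0.0, per the submitters' processing notes, and deposited raw UMI counts per gene and barcode. The notes name mm10, GRCm38 and GRCm39 without a role, and whether intronic reads were counted is not given in the sources used here. A barcode was used as a cell if it held 500 or more genes and 1000 or more UMIs, of which no more than 10% were mitochondrial. Counts were summed over the cells of a library and divided into CPM. Log2 ratios set cultured over primary CPM, with counts under 3 raised to 3, so that 3 UMIs stand for 0.0219 primary CPM or 0.00909 cultured CPM. Intervals are exact at 95% (Poisson, Clopper-Pearson or conditional) and cover counting error only. A gene was compared when it had at least 10 CPM in either library, and 4-fold was the line for calling it, with no test across samples. The members, gene lists, markers and most settings were chosen with earlier results of these data known.

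Cells were thinned without replacement to 5000 UMIs for shares and correlations (alternatives: no thinning, 2000 and 10000 UMIs). Each library was clustered in scanpy 1.11.5 (2000 variable genes without Mmp and Timp genes, 10 components, 20 neighbours, leidenalg 0.10.2, resolution 0.5). Clusters were named after the class of which at least 3 markers reached 50 CPM and 4-fold over the other cells. One without such a class was chondrocyte-like where at least 3 chondrocyte markers reached 1000 CPM, which rests on abundance alone. Mixed clusters were clustered again with 10 neighbours, and this naming rule was changed after its names had been seen. Scrublet called 0 primary and 1 cultured doublet and had not worked, so an alternative left out the 1118 and 461 highest scores. TMM factors came from edgeR 4.0.16. Named genes are the 9 members, list genes with at least 10 CPM and, for members with at least 50 CPM, the 5 genes of highest correlation. Genes under 10 CPM that complete a family or locus (Plg, Mmp11, Mmp12, Mmp27, Mmp8, Mmp1a, Mmp1b, Mmp7, Mmp20), the overlapping genes Syn3, Syn1 and Cep295nl, ZsGreen and Kdm5d were added with their values known. Gene positions are those of GENCODE M21, matched by gene identifier, and promoters are from RefSeq. Ratios and thinning were tested on simulated data. Some genes of the lists and clusters are not reported here.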

Additional observations from a re-analysis of the deposited data

How the results depend on the processing

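No member's log2 ratio changed sign under the scaling, cell and doublet alternatives, and of 81 such values 55 stayed within counting error of the values above and 26 moved. The extremes were 2.28 to 3.34 for Mmp3, 6.99 to 7.94 for Mmp13, 1.75 to 2.00 for Timp2 and 2.22 to 2.55 for Timp3. The cause of the moves was not tested. TMM scaling shifted the median of all genes compared from 0.37 to 0.16, with 791 genes at least 4-fold higher and 608 lower in place of 966 and 522. The log2 ratio of MMP to TIMP UMIs was −2.03 with each cell weighing the same and also with at least 5000 UMIs per cell, and −2.01 with chondrocyte-like primary cells alone and −2.42 with every Mmp and Timp gene, both chosen after seeing the data. The count of members at least 4-fold higher was 4 with totals that leave out mitochondrial and ribosomal protein genes, 1 at a minimum of 50 CPM, 5 at 2-fold and 1 at 8-fold. The 1488 genes at least 4-fold apart in either direction became 2575 at a minimum of 1 CPM, 754 at 50 CPM, 3625 at 2-fold and 804 at 8-fold. Shares of cells moved with the thinning depth by construction, and the Mmp9 share was 0.404 percentage points higher in cultured cells without thinning, against the order at 5000 UMIs. At 10000 UMIs the correlation of Timp2 and Timp3 in primary cells was −0.0077. Resolution 1.0 moved 4 of 18 highest cluster levels by over 1.5 times. No paired analysis was possible because each group was 1 library, and for the same reason no library could be left out. Depth limits what can be said of Mmp9 and Mmp10, with at most 71 UMIs in a library.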
